A study of Mus musculus with 12 samples.

Results

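The lysosomal proton pump and the control of the kinase complex mTORC1 at the lysosome were followed here through 53 mouse genes of the 56441 in the table. Members were chosen by name: the table's ATP6V0, ATP6V1 and ATP6AP rows without pseudogene rows (26 genes of the vacuolar proton pump, V-ATPase, and its accessory proteins), and 27 named genes that place mTORC1 on the lysosome, switch it, or read its state. Of the 53, 49 had any count and 45 had enough counts to be tested, 19 of the pump and 26 of mTORC1 control, among 15228 genes tested. The V-ATPase hydrolyses ATP in its cytosolic V1 sector to drive protons through its membrane V0 sector, which acidifies lysosomes. On the same membrane, Ragulator anchors the Rag GTPases, which bring mTORC1 to its activator Rheb when amino acids are plentiful. In the fasted liver mTORC1 activity is low, and the factors TFEB and TFE3 then enter the nucleus and drive lysosomal genes, so these genes meet where nutrient supply and autophagy are balanced.

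RNA of mouse liver was measured in 4 groups of 3 libraries, and fumarate hydratase (FH), the enzyme of the tricarboxylic acid cycle that turns fumarate into malate, was the gene delivered. C57BL/6 mice received AAV8-vector or AAV8-FH and were fasted for 24 h, and leptin-deficient ob/ob mice received AAV8-vector or AAV8-FH and were kept on a high-fat diet. All were injected by the tail vein at 6 to 8 weeks of age and collected 1 month later, and AAV8-vector was the control. The sources name neither the promoter that drove FH nor the species of its sequence. Whether replicate libraries are separate mice is also not stated, and the spread behind each p-value may therefore be technical.

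The targeted gene was higher in the FH libraries. In CPM (reads of a gene over the library's TMM-scaled total, times a fixed factor), Fh1 averaged 319 ± 85.5 without and 813 ± 104 with FH in fasted livers (SD, n = 3 in each group), and 122 ± 17.9 and 679 ± 106 in ob/ob livers. Libraries held 12231828 to 14884323 counts in the vector groups and 19107050 to 25873379 in the FH groups. The label names hepatocytes as the cell type in liver tissue, and summed hepatocyte markers (8 genes, such as Alb and Apoa1) were at 47947 to 75102 CPM with the vector and 139068 to 175069 CPM with FH. Markers of macrophages (13 of 13 detected) and of sinusoidal endothelium (9 of 9) were also present. For fasted livers the macrophage sum was 478 to 644 CPM with the vector and 239 to 272 CPM with FH, and for ob/ob livers 342 to 531 CPM and 682 to 951 CPM. Endothelial markers summed to 348 to 449, 175 to 203, 231 to 300 and 341 to 422 CPM in the same order. Both lists were lower with FH in fasted livers on either scaling (on library totals 545 to 723 and 177 to 199 CPM for macrophages, 397 to 544 and 128 to 150 CPM for endothelium). In ob/ob livers both were higher with FH relative to the bulk of genes, but the groups overlapped on library totals, at 469 to 713 and 562 to 845 CPM for macrophages and 317 to 396 and 281 to 383 CPM for endothelium. Malat1, a nuclear noncoding RNA, was at 472 to 687 CPM of library totals in vector and 10.5 to 58.4 CPM in FH libraries. Xist had 2242 to 4992 counts and Y-linked genes 0 in the 3 ob/ob FH libraries, while the other 9 had 1 to 24 and 2304 to 5181, so in ob/ob livers FH and sex cannot be told apart. Atp6ap1, Atp6ap2, Tfe3 and Rragb are X-linked. The clock genes Dbp and Arntl also separated the fasted groups, at 2.69 to 6.64 CPM of library totals with the vector and 33.5 to 46.8 CPM with FH for Dbp, and at 20.4 to 25.8 and 1.27 to 2.77 CPM for Arntl. Ob/ob vector replicate 2 stood apart from its group (Dbp at 0.564 CPM of library totals against 48.9 and 48.4), and counts without it are given for the comparisons that use its group. The part of these shifts in the results below was not tested.

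With FH, a larger share of the proton pump and mTORC1 genes than of all genes was called higher in both models relative to the bulk of genes, while on library totals the ob/ob share was 6.67% against 6.83%. Relative to the bulk of genes (TMM scaling), 25 of the 45 members rose and 6 fell in fasted livers, 68.9% called against 55% of all genes tested, with 55.6% higher against 27.4% and 13.3% lower against 27.6%. In ob/ob livers 16 rose and 8 fell, 53.3% against 53.7%, with 35.6% higher against 25.8% and 17.8% lower against 27.9%. The call is an adjusted p under 0.05 from edgeR's quasi-likelihood test. The median log2 fold change (FH over vector) of the members was 0.51 in fasted and 0.28 in ob/ob livers, beside -0.04 and -0.01 over all genes. In fasted livers the FH and vector libraries did not overlap for 30 members (66.7%, against 61% of all genes) and in ob/ob livers for 27 (60.0%, against 61.8%).

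The direction of these counts depends on the scaling. On library totals, where the median of all genes was far lower, 5 members were called higher and 17 lower in fasted livers (11.1% and 37.8%, against 7.16% and 55.7% of all genes), and 3 higher and 20 lower in ob/ob livers (6.67% and 44.4%, against 6.83% and 53.3%). The members' medians were then -0.17 and -0.33, again above those of all genes (-0.71 and -0.63). The genes called higher on both scalings were Mtor, Rptor, Fnip2, Atp6v0d1 and Atp6v0d2 in fasted livers and Atp6ap1, Atp6v0a1 and Atp6v0d1 in ob/ob livers, and Atp6v0d1 alone was so in both. All log2 fold changes from here are relative to the bulk of genes unless library totals are named. Without ob/ob vector replicate 2, 16 members rose and 4 fell in ob/ob livers, and 5, 4, 5 and 5 fell without ob/ob vector replicate 3 and ob/ob FH replicates 1, 2 and 3. With all libraries, 25.8% of all genes rose and 27.9% fell in ob/ob livers, and shares without a library are not given here.

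**Figure D1:**
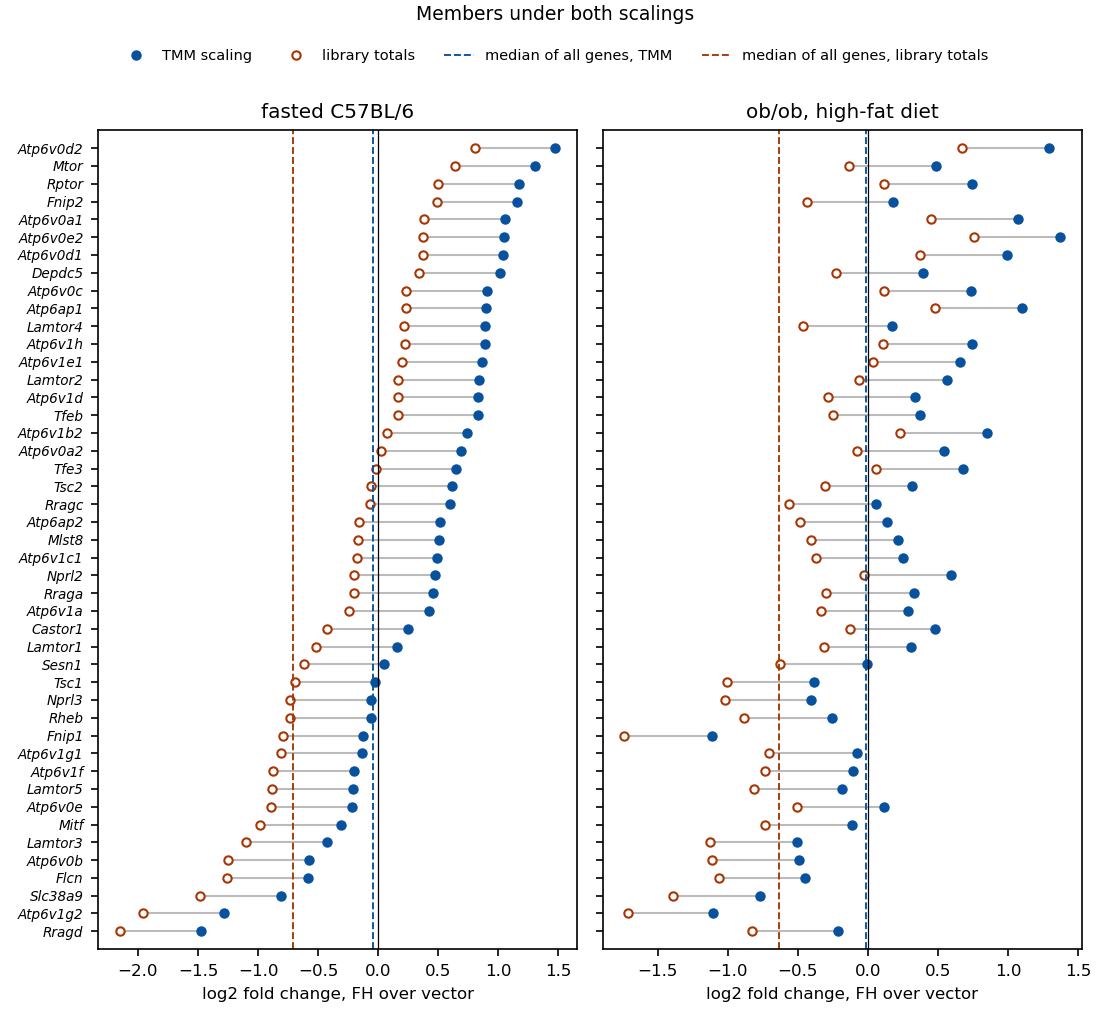
Log2 fold change of each tested member, FH over vector (horizontal axis), in the fasted (left) and ob/ob (right) livers, relative to the bulk of genes and on library totals. Library totals move every member down by a similar step, leaving 5 and 3 members called higher where 25 and 16 were called relative to the bulk.

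The membrane sector held the pump's largest rises. Atp6v0d1, the d subunit that joins the proton-carrying ring to the central stalk in most tissues, was at 57.1, 49.7 and 43.9 CPM in the fasted vector libraries and at 105, 99.5 and 105 CPM in the fasted FH libraries. It was at 52.5, 45.9 and 50.5 CPM with the vector and at 97.2, 101 and 97.9 CPM with FH in ob/ob livers. The groups lay wholly apart in both models and their FH levels nearly coincided. Its log2 fold change was 1.04 (SE 0.12, adjusted p = 1.15e-05) in fasted and 0.99 (SE 0.12, adjusted p = 1.49e-05) in ob/ob livers, and the 2 effects differed by -0.04 (adjusted p = 0.903). On library totals it was 0.37 in each model (adjusted p = 0.0114 and 0.0113).

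Atp6v0a1, an a subunit, which lines the path of the protons, was at 23.1, 33.0 and 32.5 CPM with the vector and at 55.0, 67.3 and 62.2 CPM with FH in fasted livers. For ob/ob livers the values were 33.2, 25.1 and 34.9 CPM and 63.8, 69.6 and 62.4 CPM. FH libraries of either model were above all 6 vector libraries, and the log2 fold changes were 1.06 (SE 0.16, adjusted p = 1.09e-04) and 1.07 (SE 0.16, adjusted p = 9.75e-05). On library totals these were 0.38 (adjusted p = 0.0588) and 0.45 (adjusted p = 0.0305). Atp6v0a2, the a subunit best known from the Golgi, rose less, by 0.69 (adjusted p = 4.91e-04) and 0.54 (adjusted p = 0.00278), and stood at 0.02 and -0.08 on library totals, with neither called.

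Atp6v0c, the proteolipid that forms most of the ring, was at 39.9, 46.7 and 39.1 CPM with the vector and 82.4, 74.8 and 77.9 CPM with FH in fasted livers. For ob/ob livers the values were 40.4, 36.8 and 43.1 CPM and 64.5, 70.2 and 65.4 CPM. The groups did not overlap in either model, with log2 fold changes of 0.90 (SE 0.11, adjusted p = 2.46e-05) and 0.73 (SE 0.11, adjusted p = 1.14e-04), and of 0.23 and 0.11 on library totals, not called. A pseudogene of it, Atp6v0c-ps2, held 1 count a library with the vector and 11 to 13 with FH in fasted livers. It held 3 to 4 and 8 to 9 counts in ob/ob livers. How reads matching both were counted is not stated, so the number of reads shared by the pair is unknown. Atp6v0b, the second proteolipid of the ring, went the other way. It was at 43.2, 25.9 and 38.0 CPM with the vector and 20.3, 22.7 and 28.8 CPM with FH in fasted livers, and at 34.5, 34.2 and 29.6 CPM and 22.9, 24.2 and 22.9 CPM in ob/ob livers. The fasted groups overlapped and the ob/ob groups did not. It fell by 0.57 (SE 0.18, adjusted p = 0.0137) and by 0.49 (SE 0.17, adjusted p = 0.0297). The fasted call was lost without vector replicate 3 (-0.51, adjusted p = 0.0559), FH replicate 1 (-0.46, 0.0671) or FH replicate 2 (-0.53, 0.0521), and the ob/ob call without vector replicate 1 (-0.43, 0.0909) or 2 (-0.44, 0.0651) or FH replicate 1 (-0.49, 0.0666), 2 (-0.51, 0.0625) or 3 (-0.50, 0.0669).

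Atp6v0d2, the d subunit described in osteoclasts, kidney and macrophages, was scarce but higher with FH. It was at 3.48, 2.39 and 2.92 CPM with the vector and 9.83, 5.08 and 9.49 CPM with FH in fasted livers, and at 1.33, 3.63 and 2.62 CPM and 6.99, 6.24 and 5.45 CPM in ob/ob livers. Every FH library was above every vector library. The log2 fold changes were 1.48 (SE 0.33, adjusted p = 0.00181) and 1.29 (SE 0.32, adjusted p = 0.00435), and 0.80 (adjusted p = 0.045) and 0.67 (adjusted p = 0.0895) on library totals. The summed macrophage markers given above were lower with FH in fasted livers on both scalings, and in ob/ob livers their direction depended on the scaling; their part in the level of Atp6v0d2 was not tested. Per kilobase of exon and averaged over the 4 groups, Atp6v0d1 stood at 46.3 CPM per kb and Atp6v0d2 at 1.95 CPM per kb. In bulk tissue, fewer cells of a type and less RNA per cell cannot be told apart. The small e subunits were Atp6v0e, at -0.22 (adjusted p = 0.139) and 0.12 (adjusted p = 0.43), and Atp6v0e2. Atp6v0e2 had 1 to 40 counts a library, close to the filter on low counts. Its level was 0.259 to 0.441 CPM per kb in ob/ob vector and 0.727 to 1.05 CPM per kb in ob/ob FH libraries. It was at 1.05 (adjusted p = 0.158) in fasted livers and rose by 1.37 (SE 0.50, adjusted p = 0.0325) in ob/ob livers. That call was lost without any FH library (1.40, 1.49 and 1.18, adjusted p = 0.0627, 0.0514 and 0.117, for replicates 1, 2 and 3) and without vector replicate 1 (1.24, adjusted p = 0.0973) or 3 (1.30, adjusted p = 0.0828).

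**Figure D2:**
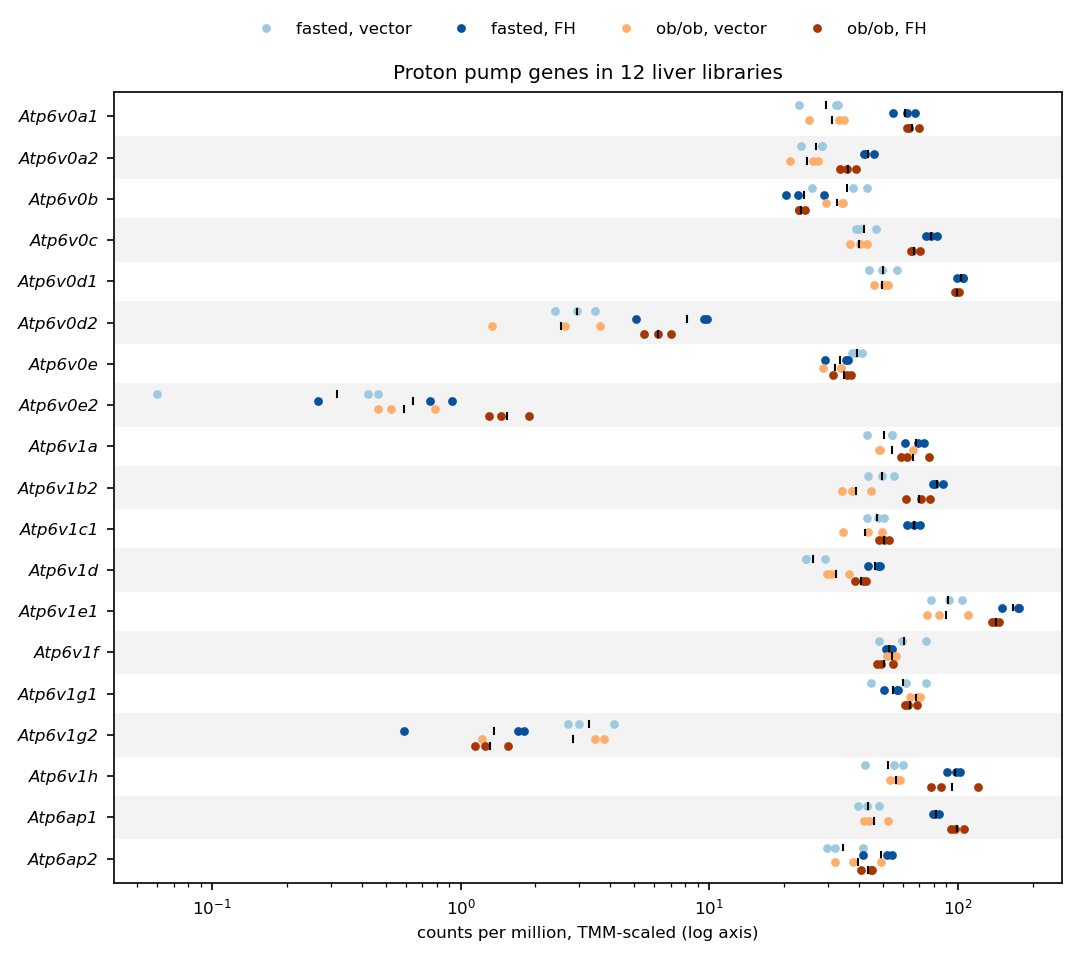
Level of each tested V-ATPase gene in every library (points, CPM after TMM scaling, log axis), coloured by group. Atp6v0d1 lies at 43.9 to 57.1 CPM in all 6 vector libraries and at 97.2 to 105 CPM in all 6 FH libraries. Atp6v1f and Atp6v1g1 hold overlapping groups in both models, and Atp6v0e in ob/ob livers only.

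In the catalytic sector 6 of 9 tested genes rose and 1 fell in fasted livers, and 4 rose and 1 fell in ob/ob livers. Of all genes, 27.4% rose and 27.6% fell in fasted livers, and 25.8% and 27.9% in ob/ob livers. On library totals 0 of the 9 rose and 3 and 5 fell, beside 7.16% and 6.83% of all genes higher and 55.7% and 53.3% lower. Atp6v1e1, a peripheral stalk subunit, was at 104, 92.4 and 78.2 CPM with the vector and 176, 150 and 175 CPM with FH in fasted livers, and at 84.4, 75.4 and 110 CPM and 141, 147 and 138 CPM in ob/ob livers. The groups did not overlap, with log2 fold changes of 0.87 (SE 0.15, adjusted p = 3.38e-04) and 0.66 (SE 0.15, adjusted p = 0.00245), and of 0.20 and 0.04 on library totals. Atp6v1h, a regulator that couples ATP hydrolysis to assembly of the sectors, was at 60.0, 55.3 and 42.5 CPM and 98.7, 90.3 and 102 CPM in fasted livers, and at 58.7, 53.6 and 57.2 CPM and 120, 85.5 and 77.9 CPM in ob/ob livers. It also separated the groups, at 0.89 (SE 0.17, adjusted p = 5.55e-04) and 0.74 (SE 0.16, adjusted p = 0.00196), and at 0.22 and 0.11 on library totals.

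The ATP-binding hexamer is made of A and B subunits, and they moved unequally. Atp6v1b2, the widely expressed B subunit, was at 43.6 to 55.4 CPM with the vector and 79.7 to 87.3 CPM with FH in fasted livers, and at 34.2 to 44.8 CPM and 62.2 to 77.0 CPM in ob/ob livers. It rose by 0.74 (adjusted p = 4.27e-04) and 0.85 (SE 0.13, adjusted p = 1.59e-04), with 0.07 and 0.23 on library totals. Atp6v1a, the catalytic A subunit, was at 54.6, 54.3 and 43.0 CPM and 69.1, 72.9 and 61.5 CPM in fasted livers, a rise of 0.42 (adjusted p = 0.0338) that was -0.24 on library totals. That call did not hold without fasted vector replicate 1 (0.42, adjusted p = 0.0642) or 3 (0.33, 0.127), fasted FH replicate 1 (0.41, 0.0745) or 2 (0.37, 0.0996), or ob/ob FH replicate 1 (0.36, 0.0837) or 3 (0.35, 0.0807). In ob/ob livers its groups overlapped, with 48.9, 48.0 and 66.0 CPM and 62.3, 76.6 and 59.3 CPM, at 0.28 (adjusted p = 0.136), and it was called there only without vector replicate 3 (0.47, adjusted p = 0.0222). The difference between the A and B subunits was not tested.

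Of the remaining stalk subunits, Atp6v1d of the central rotor rose by 0.83 (adjusted p = 7.32e-05) in fasted livers and by 0.34 (adjusted p = 0.0273) in ob/ob livers, where library totals gave -0.29. The ob/ob call was lost without vector replicate 1 (0.30, adjusted p = 0.0901) or 2 (0.32, 0.0612) or FH replicate 1 (0.29, 0.105) or 3 (0.31, 0.0948). Atp6v1c1, which links the sectors, rose by 0.49 (adjusted p = 0.00642) in fasted livers, with -0.18 on library totals, and was at 0.25 (adjusted p = 0.124) in ob/ob livers, called there only without vector replicate 3 (0.39, adjusted p = 0.0282). Atp6v1f and Atp6v1g1, a rotor and a stalk subunit, were between -0.20 and -0.08 in both models, with adjusted p from 0.233 to 0.687, though Atp6v1f was called in fasted livers without vector replicate 2 (-0.33, adjusted p = 0.0464). Atp6v1g2, a G subunit best known from neurons, was at 2.7, 2.99 and 4.12 CPM with the vector and 1.70, 1.81 and 0.59 CPM with FH in fasted livers, and at 1.22, 3.47 and 3.77 CPM and 1.14, 1.25 and 1.55 CPM in ob/ob livers. The groups were apart in fasted livers and overlapped in ob/ob livers through vector replicate 1. It fell by 1.28 (SE 0.45, adjusted p = 0.0258) and by 1.10 (SE 0.43, adjusted p = 0.0457). The fasted call was lost without vector replicate 3 (-1.07, adjusted p = 0.10) or FH replicate 3 (-0.89, 0.107), and the ob/ob call without any of 9 libraries, all but fasted vector replicate 1, fasted FH replicate 3 and ob/ob vector replicate 1 (-1.26 to -0.82, adjusted p = 0.0514 to 0.164). Exons of Nfkbil1 overlap Atp6v1g2 on the opposite strand with counts equal to 86.4% of those of Atp6v1g2, and whether counting used the strand is not stated.

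Accessory proteins complete the pump. Atp6ap1, an assembly and sorting subunit, was at 43.0, 48.1 and 39.8 CPM with the vector and 79.5, 80.7 and 83.9 CPM with FH in fasted livers, and at 42.1, 44.0 and 52.5 CPM and 97.5, 105 and 94.2 CPM in ob/ob livers. The groups lay apart in both, at 0.90 (SE 0.12, adjusted p = 3.83e-05) and 1.10 (SE 0.12, adjusted p = 8.67e-06), and at 0.23 (adjusted p = 0.0842) and 0.48 (adjusted p = 0.00203) on library totals. Atp6ap2, the prorenin receptor, rose by 0.52 (adjusted p = 0.0202) in fasted livers, where the groups overlapped and library totals gave -0.16, and was at 0.14 (adjusted p = 0.518) in ob/ob livers. Its fasted call was lost without vector replicate 2 (0.44, adjusted p = 0.0716) or 3 (0.48, 0.0667), FH replicate 2 (0.45, 0.0738) or 3 (0.48, 0.0581), or ob/ob FH replicate 1 (0.45, 0.0505) or 3 (0.45, 0.0503).

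The pump's FH effect did not differ detectably between the models. In the test of the difference, edgeR called 0 of 19 pump genes, against 8.43% of all genes tested. At an unadjusted p under 0.05 there was 1 pump gene, and DESeq2 called 0. Summed over the sector, V0 genes reached 223 to 232 CPM in the fasted vector libraries, 345 to 362 CPM in fasted FH, 196 to 224 CPM in ob/ob vector and 324 to 349 CPM in ob/ob FH libraries. V1 genes summed to 401 to 496, 603 to 661, 408 to 484 and 547 to 604 CPM in the same order. FH libraries were above vector libraries for both sectors on this scaling and for neither on library totals. There V0 genes summed to 253 to 275 and 252 to 261 CPM in fasted and 263 to 306 and 269 to 310 CPM in ob/ob livers, overlapping in both. V1 genes summed to 483 to 566 and 442 to 489 CPM in fasted livers, overlapping, and to 547 to 638 and 496 to 523 CPM in ob/ob livers, where FH was below. Of the 5 isoforms listed for acid-secreting cells, 4 were nearly absent: Atp6v0a4, Atp6v1b1 and Atp6v1c2 held at most 5, 2 and 5 counts in any library and Atp6v1g3 held 0, where 0 allows up to 3 counts. The fifth, Atp6v0d2, is described above. Atp6v1e2, Atp6ap1l and Atp6v1fnb also held 0. Per kilobase, Atp6v1b2 stood at 21.3 CPM per kb against 0.00696 for Atp6v1b1, Atp6v1c1 at 25 against 0.0354 for Atp6v1c2, and the a subunits at 11.6 for Atp6v0a1, 6.14 for Atp6v0a2 and 0.0381 for Atp6v0a4.

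Because TFEB and TFE3 bind E-boxes, promoters were searched for CACGTG. Of the 19 tested pump genes, 13 had a promoter in RefSeq, and 4 of the 13 held CACGTG. Promoter sequences of these 4 are shown, and they differ in how they moved. They run from 250 bases before to 50 after the start, read 5′ to 3′ on the gene's strand from RefSeq (GRCm38.p6), and capitals mark CACGTG. Atp6v0d1 (chr8:105566015-105566314, minus strand) rose in both models, Atp6v1a (chr16:44139210-44139509, minus strand) in fasted livers, Atp6v0e (chr17:26676146-26676445, plus strand) was called in neither, and Atp6v0b (chr4:117887280-117887579, minus strand) fell in both.
Atp6v0d1: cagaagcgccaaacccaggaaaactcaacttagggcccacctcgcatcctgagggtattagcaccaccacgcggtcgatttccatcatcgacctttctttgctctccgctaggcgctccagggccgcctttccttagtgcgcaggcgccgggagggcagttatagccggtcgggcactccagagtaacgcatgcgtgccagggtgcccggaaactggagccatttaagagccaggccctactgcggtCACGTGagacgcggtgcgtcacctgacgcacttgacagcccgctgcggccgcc
Atp6v1a: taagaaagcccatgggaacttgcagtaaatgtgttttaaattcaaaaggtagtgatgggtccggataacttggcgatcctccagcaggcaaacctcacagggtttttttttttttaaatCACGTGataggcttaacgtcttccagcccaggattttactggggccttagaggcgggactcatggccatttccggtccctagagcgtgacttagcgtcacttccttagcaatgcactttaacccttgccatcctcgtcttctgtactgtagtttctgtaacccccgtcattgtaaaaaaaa
Atp6v0e: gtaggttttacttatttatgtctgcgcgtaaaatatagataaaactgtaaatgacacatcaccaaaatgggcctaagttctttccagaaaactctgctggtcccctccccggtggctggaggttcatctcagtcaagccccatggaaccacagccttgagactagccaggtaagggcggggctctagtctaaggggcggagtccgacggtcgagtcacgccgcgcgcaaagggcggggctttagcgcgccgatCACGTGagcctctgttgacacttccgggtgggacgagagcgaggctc
Atp6v0b: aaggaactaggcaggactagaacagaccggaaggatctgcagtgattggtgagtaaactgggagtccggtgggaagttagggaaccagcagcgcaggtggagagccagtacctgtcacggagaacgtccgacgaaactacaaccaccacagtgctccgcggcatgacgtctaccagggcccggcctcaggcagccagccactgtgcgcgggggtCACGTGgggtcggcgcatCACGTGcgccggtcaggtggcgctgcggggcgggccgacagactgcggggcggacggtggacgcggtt
In the first 3 the hexamer sits within TCACGTGA, an E-box with the flanks that TFEB-family factors favour. In Atp6v0b it occurs at 2 places, each with the T before it but without the A after it. Of the 45 members with a promoter in the RefSeq table, 10 held CACGTG, which reads the same on both strands. Among tested genes with a promoter, CACGTG was in 9 of 38 members (23.7%) and 11.2% of 10994 genes, and TCACGTGA in 3 of 38 members (7.89%) and 2.1% of genes. In fasted livers 4 of the 9 members with CACGTG rose and 1 fell (median 0.16), and of the 29 without it 16 rose and 4 fell (median 0.52). The ob/ob counts were 1 rise and 2 falls of the 9, and 11 rises and 5 falls of the 29. Over all tested genes, those with CACGTG rose in 34.6% and fell in 18.6% of cases in fasted livers (median 0.18), against 29.3% and 26.3% without it. In ob/ob livers the shares were 30.2% and 22.1% (median 0.10), against 27.8% and 25.2% (median 0.05). These are matches of letters in a short window, not sites of binding.

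The mTORC1 core carried the largest rises of the control genes in fasted livers, and Mtor differed between the models. Mtor, the kinase itself, was at 29.1, 31.0 and 28.4 CPM with the vector and 65.0, 79.9 and 74.2 CPM with FH in fasted livers. It was at 65.3, 49.7 and 71.2 CPM with the vector and 73.5, 90.4 and 96.4 CPM with FH in ob/ob livers. The ob/ob vector libraries thus lay above all fasted vector libraries, and the groups of each FH comparison did not overlap. The log2 fold change was 1.31 (SE 0.15, adjusted p = 1.51e-05) in fasted and 0.48 (SE 0.15, adjusted p = 0.0136) in ob/ob livers, and 0.64 (adjusted p = 0.00356) and -0.13 (adjusted p = 0.488) on library totals. The ob/ob call was lost without FH replicate 3 (0.38, adjusted p = 0.0801). The effect was smaller in ob/ob livers by 0.82 (log2, SE 0.21, adjusted p = 0.0296), a call that was lost on library totals (-0.77, adjusted p = 0.0554). It also rested on all libraries but 3: it held without fasted vector replicate 2, fasted FH replicate 1 or ob/ob vector replicate 2, and was lost without any of the other 9 (-0.86 to -0.67, adjusted p = 0.0534 to 0.0909).

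Rptor, the subunit (raptor) that presents substrates, was at 17.2, 23.2 and 19.9 CPM with the vector and 44.3, 46.3 and 45 CPM with FH in fasted livers, and at 26.5, 23.8 and 22.6 CPM and 40.0, 44.6 and 37.3 CPM in ob/ob livers. The groups did not overlap. It rose by 1.17 (SE 0.13, adjusted p = 1e-05) and 0.74 (SE 0.13, adjusted p = 2.81e-04), with 0.50 (adjusted p = 0.00506) and 0.12 (adjusted p = 0.458) on library totals, and the difference of effects was -0.43 (adjusted p = 0.154). Mlst8, the third core subunit, was at 1.56 to 3.26 CPM and 2.69 to 4.61 CPM in fasted livers and at 4.47 to 5.18 CPM and 4.94 to 5.92 CPM in ob/ob livers, with FH effects of 0.51 (adjusted p = 0.132) and 0.21 (adjusted p = 0.496). Summed, the core was at 49.5 to 55.8 CPM in the fasted vector libraries, 112 to 131 CPM in fasted FH, 78.1 to 99.0 CPM in ob/ob vector and 119 to 140 CPM in ob/ob FH libraries. On library totals the core summed to 56.5 to 62.7 and 82.9 to 95.7 CPM in fasted livers, still apart, and to 105 to 132 and 98.2 to 126 CPM in ob/ob livers, where the groups overlapped.

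**Figure D3:**
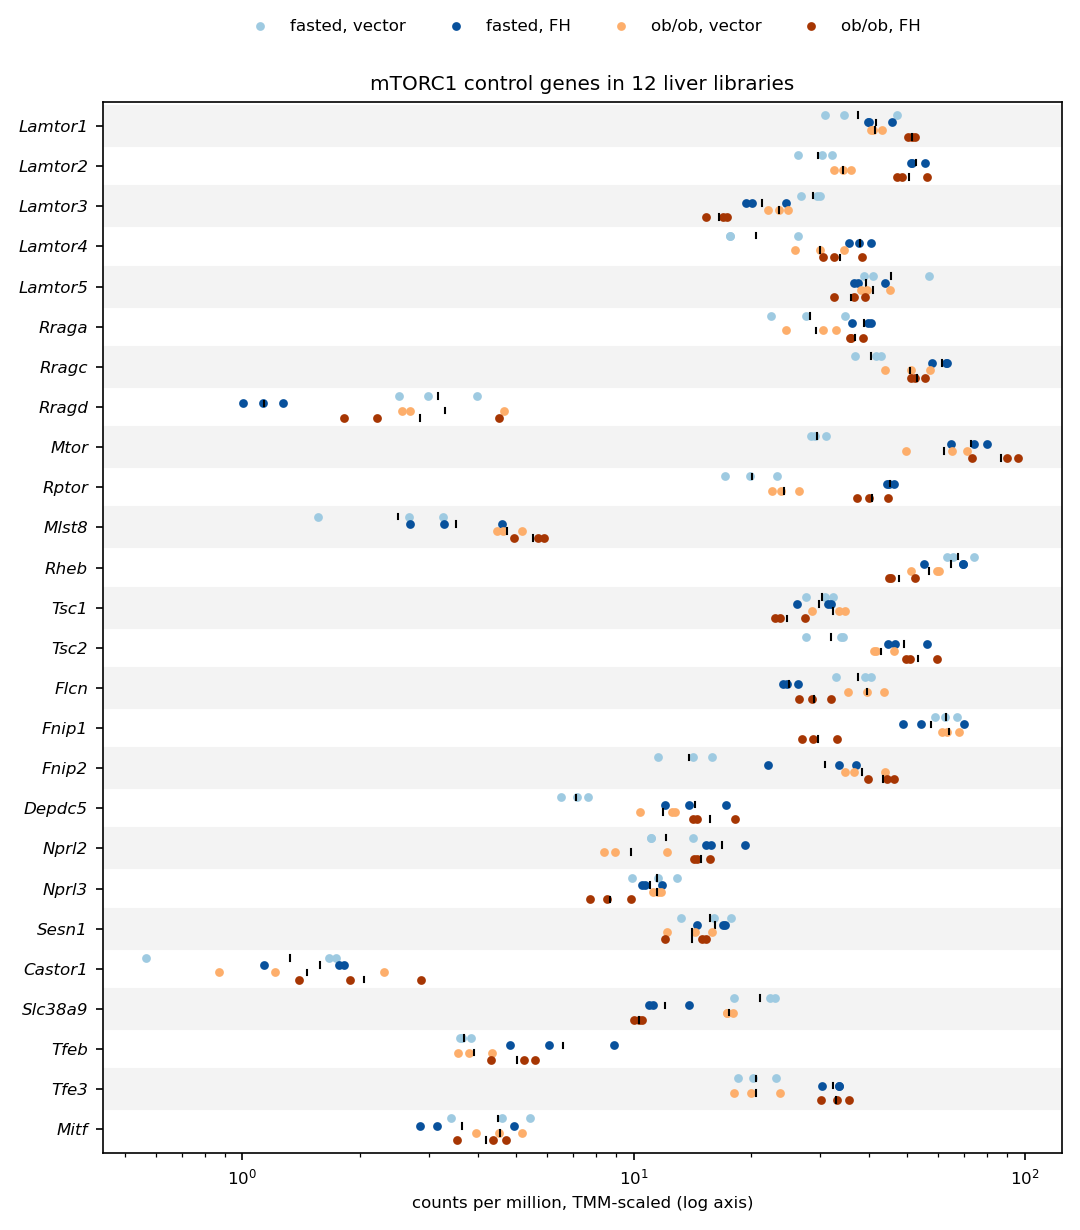
Level of each tested mTORC1 control gene in every library (points, CPM after TMM scaling, log axis), coloured by group. Mtor is at 28.4 to 31.0 CPM in the fasted vector libraries and at 49.7 to 96.4 CPM in all others, and Slc38a9 is lower with FH in both models.

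The folliculin complex activates RagC and RagD, and its 3 members moved differently. Flcn, folliculin, was at 39.0, 33.0 and 40.5 CPM with the vector and 24.6, 26.3 and 24.1 CPM with FH in fasted livers, and at 35.4, 43.6 and 39.5 CPM and 26.5, 28.6 and 31.9 CPM in ob/ob livers. It fell by 0.58 (SE 0.12, adjusted p = 0.00136) and by 0.44 (SE 0.12, adjusted p = 0.00759), without overlap. Fnip1, a folliculin partner, was at 67.1, 59.0 and 62.4 CPM and 69.9, 54.3 and 49.0 CPM in fasted livers, where the groups overlapped. In ob/ob livers it was at 68.0, 61.5 and 63.2 CPM with the vector and 28.8, 33.2 and 27.0 CPM with FH, so that the ob/ob FH libraries were below the other 9. Its effects were -0.12 (adjusted p = 0.468) and -1.11 (SE 0.14, adjusted p = 2.55e-05). They differed by -0.99 (SE 0.19, adjusted p = 0.00878), and by -0.94 (adjusted p = 0.0185) on library totals, and the call held with each of the 12 libraries left out.

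Fnip2, the alternative partner, was at 15.8, 11.6 and 14.2 CPM with the vector and 37.1, 33.6 and 22.0 CPM with FH in fasted livers. It was at 36.7, 34.7 and 43.9 CPM with the vector and 39.7, 46.4 and 44.5 CPM with FH in ob/ob livers. The fasted vector libraries were below the other 9, and the ob/ob groups overlapped. It rose by 1.16 (SE 0.19, adjusted p = 1.73e-04) in fasted livers, was at 0.18 (adjusted p = 0.408) in ob/ob livers, and the effects differed by -0.98 (SE 0.26, adjusted p = 0.0335). That difference was lost on library totals (-0.92, adjusted p = 0.0601), with the replicate number as a block (-0.97, adjusted p = 0.0512), and without any library other than fasted vector replicate 1, fasted FH replicate 3 or ob/ob vector replicate 2 (-1.02 to -0.82, adjusted p = 0.0544 to 0.0892).

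**Figure D4:**
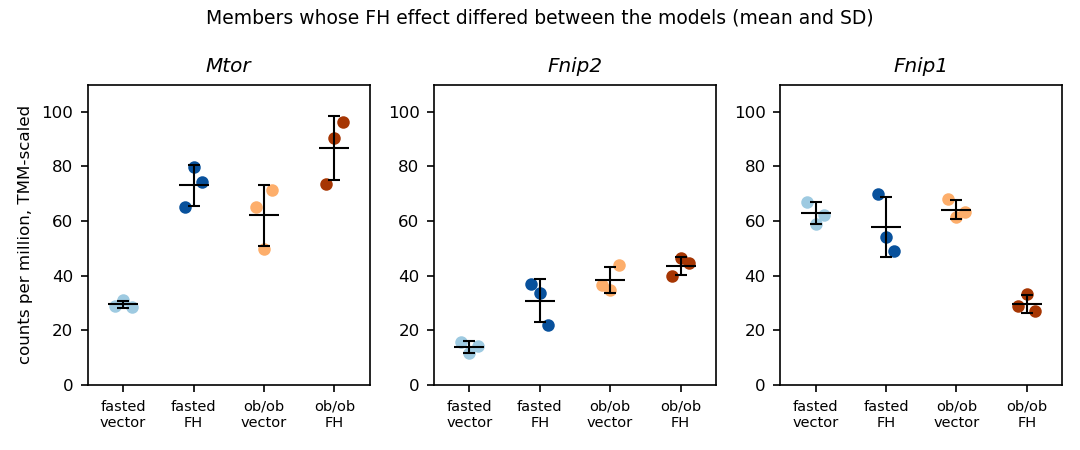
CPM after TMM scaling of the 3 members whose FH effect differed between the models, in each library (points) with the mean and SD of each group. Fnip1 falls to 27.0 to 33.2 CPM in ob/ob FH libraries, while Mtor and Fnip2 are lowest in fasted vector libraries, at 28.4 to 31.0 and 11.6 to 15.8 CPM.

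In the test of the difference over all 45 members, edgeR called 3, all lower in ob/ob livers (6.67%, against 8.43% of all genes called, 3.66% lower and 4.77% higher). At an unadjusted p under 0.05 there were 8 lower and 1 higher, and DESeq2 called 4 lower and 0 higher. Leaving out 1 library gave 1 to 5 calls, with 5 without ob/ob vector replicate 2 and 1 without any of fasted vector replicate 3, fasted FH replicate 2, ob/ob vector replicates 1 and 3 and ob/ob FH replicates 1 to 3. On library totals 1 was called, against 7.11% of all genes. The 2 FH comparisons use separate libraries, but the models differ in strain, diet and feeding, and the ob/ob FH libraries in sex.

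Ragulator and the Rag GTPases, the anchor and switch of mTORC1, changed member by member. Lamtor2 was at 32.1, 26.3 and 30.3 CPM with the vector and 51.3, 51.5 and 55.5 CPM with FH in fasted livers, and at 36.0, 32.5 and 34.4 CPM and 56.1, 48.4 and 47.3 CPM in ob/ob livers. It rose by 0.84 (SE 0.12, adjusted p = 5.42e-05) and 0.56 (SE 0.11, adjusted p = 0.00104), with 0.16 and -0.06 on library totals, and the groups did not overlap. Lamtor3, its partner in the complex, was at 26.8 to 29.9 CPM and 19.4 to 24.5 CPM in fasted livers and at 22.1 to 24.9 CPM and 15.3 to 17.4 CPM in ob/ob livers. It fell by 0.43 (adjusted p = 0.00848) and by 0.51 (adjusted p = 0.00319), so the pair that forms a heterodimer moved in opposite directions. Lamtor4 was at 26.4, 17.7 and 17.7 CPM and 35.6, 37.8 and 40.6 CPM in fasted livers, a rise of 0.89 (SE 0.17, adjusted p = 5.92e-04) that was 0.22 on library totals. Its ob/ob groups overlapped at 25.8 to 34.5 CPM and 30.5 to 38.4 CPM, at 0.17 (adjusted p = 0.403). Its effects differed by -0.72 (adjusted p = 0.0744), called only without fasted vector replicate 1 (-0.90, adjusted p = 0.0195) or ob/ob vector replicate 2 (-0.82, 0.0339). Lamtor1, which anchors the complex to the membrane, and Lamtor5 were called in neither model, with log2 fold changes from -0.21 to 0.31, though Lamtor1 was called in fasted livers without fasted vector replicate 1 (0.30, adjusted p = 0.0432), and in ob/ob livers without fasted vector replicate 1 (0.30, 0.0241) or 2 (0.33, 0.0437).

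Rragc was at 36.8 to 42.9 CPM with the vector and 58.0 to 63.1 CPM with FH in fasted livers, and at 44.0 to 57.4 CPM and 51.2 to 55.7 CPM in ob/ob livers. It rose by 0.60 (SE 0.12, adjusted p = 8.42e-04) in fasted livers, with -0.07 on library totals, and was at 0.06 (adjusted p = 0.691) in ob/ob livers. The effects differed by -0.54 (adjusted p = 0.0624), called only without ob/ob vector replicate 2 (-0.64, adjusted p = 0.0218). Rragd, its paralogue, was at 2.98, 2.51 and 3.99 CPM with the vector and 1.27, 1.00 and 1.13 CPM with FH in fasted livers, a fall of 1.47 (SE 0.39, adjusted p = 0.00576) without overlap. The ob/ob values were 2.55, 2.68 and 4.66 CPM and 1.81, 4.53 and 2.21 CPM, at -0.22 (adjusted p = 0.626), and the difference of 1.26 between the effects was not called (adjusted p = 0.153). Per kilobase, Rragc stood at 19.9 CPM per kb against 0.505 for Rragd, and Rraga at 20.6 against 0.0401 for Rragb, which held at most 4 counts. Rraga rose by 0.46 (adjusted p = 0.022) in fasted livers, with -0.21 on library totals, and was at 0.33 (adjusted p = 0.0863) in ob/ob livers, called there without fasted vector replicate 2 or 3 or ob/ob vector replicate 3 (0.34 to 0.44, adjusted p = 0.0441 to 0.0487). The fasted call was lost without 6 libraries, fasted vector replicates 1 and 3, fasted FH replicates 1 and 3 and ob/ob FH replicates 1 and 3 (0.33 to 0.45, adjusted p = 0.0537 to 0.0929).

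Among the brakes of the pathway, Tsc2, the subunit that switches Rheb off, was at 27.7, 34.4 and 34.0 CPM with the vector and 46.6, 56.2 and 44.6 CPM with FH in fasted livers. The ob/ob values were 46.2, 41.2 and 41.6 CPM and 49.9, 59.6 and 51.0 CPM. It rose by 0.62 (SE 0.13, adjusted p = 0.0014) in fasted livers and was at 0.31 (adjusted p = 0.0548) in ob/ob livers, and library totals gave -0.06 and -0.31. It was called in ob/ob livers without fasted vector replicate 1 or 2, fasted FH replicate 2 or ob/ob vector replicate 1 (0.30 to 0.39, adjusted p = 0.0434 to 0.0488). Pkd1 overlaps its exons on the opposite strand with 38.7% as many counts. Tsc1, its partner, was at -0.02 (adjusted p = 0.89) in fasted livers and fell by 0.39 (adjusted p = 0.0201) in ob/ob livers, a call lost without vector replicate 2 (-0.35, adjusted p = 0.0564) or 3 (-0.31, 0.0863) or FH replicate 1 (-0.37, 0.0553) or 3 (-0.36, 0.0641). Rheb was called in neither, at -0.06 and -0.26.

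GATOR1 turns RagA and RagB off. Depdc5, its scaffold, was at 6.53 to 7.64 CPM with the vector and 12 to 17.3 CPM with FH in fasted livers, and at 10.4 to 12.8 CPM and 14.2 to 18.2 CPM in ob/ob livers. It rose by 1.01 (SE 0.17, adjusted p = 2.35e-04) in fasted livers, with 0.34 on library totals (adjusted p = 0.122). For ob/ob livers it was at 0.40 (adjusted p = 0.0525), called without ob/ob vector replicate 2 (0.47, adjusted p = 0.0437) or fasted FH replicate 2 (0.40, 0.0376) or 3 (0.40, 0.0419), and at -0.23 on library totals. Nprl2 rose by 0.47 (adjusted p = 0.0282) and 0.59 (adjusted p = 0.00852), with -0.20 and -0.03 on library totals, and its fasted call did not hold without fasted vector replicate 2 (0.42, adjusted p = 0.0793) or 3 (0.42, 0.0866), fasted FH replicate 1 (0.37, 0.112) or ob/ob FH replicate 1 (0.40, 0.0667) or 3 (0.40, 0.0697). Nprl3, at -0.06 in fasted livers, fell by 0.40 (adjusted p = 0.0304) in ob/ob livers, a call lost without any vector library or FH replicate 1 or 2 (-0.41 to -0.34, adjusted p = 0.053 to 0.104). Mpg overlaps its exons on the opposite strand with 24.7% as many counts.

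Of the amino acid sensors, Slc38a9, the lysosomal arginine sensor and transporter, was at 18.0, 22.4 and 22.9 CPM with the vector and 11, 11.2 and 13.8 CPM with FH in fasted livers, and at 18.0, 17.3 and 17.3 CPM and 10.05, 10.36 and 10.52 CPM in ob/ob livers. All FH libraries were below all vector libraries. It fell by 0.81 (SE 0.13, adjusted p = 2.09e-04) and by 0.77 (SE 0.13, adjusted p = 3.27e-04). Sesn1, a leucine sensor, and Castor1, a cytosolic arginine sensor, were called in neither model, with Sesn1 at 0.05 and -0.00 and Castor1 at 0.24 and 0.48.

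The factors that read mTORC1 activity were Tfe3, Tfeb and Mitf, at 7.36, 1.20 and 0.794 CPM per kb over the 4 groups. Tfe3 was at 20.2, 23.2 and 18.5 CPM with the vector and 33.5, 30.3 and 33.4 CPM with FH in fasted livers, and at 18.0, 23.7 and 19.9 CPM and 30.1, 35.6 and 33.1 CPM in ob/ob livers. It rose by 0.65 (SE 0.13, adjusted p = 9.74e-04) and 0.68 (SE 0.13, adjusted p = 7.18e-04) without overlap, with -0.02 and 0.06 on library totals. Tfeb was at 3.83, 3.65 and 3.59 CPM and 8.91, 6.09 and 4.82 CPM in fasted livers, a rise of 0.83 (SE 0.23, adjusted p = 0.00718) that was 0.17 on library totals. The ob/ob values were 4.35, 3.78 and 3.56 CPM and 5.23, 4.32 and 5.59 CPM, where the groups overlapped at 0.37 (adjusted p = 0.175), and the effects differed by -0.46 (adjusted p = 0.412). Mitf was called in neither, at -0.31 and -0.11.

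**Figure D5:**
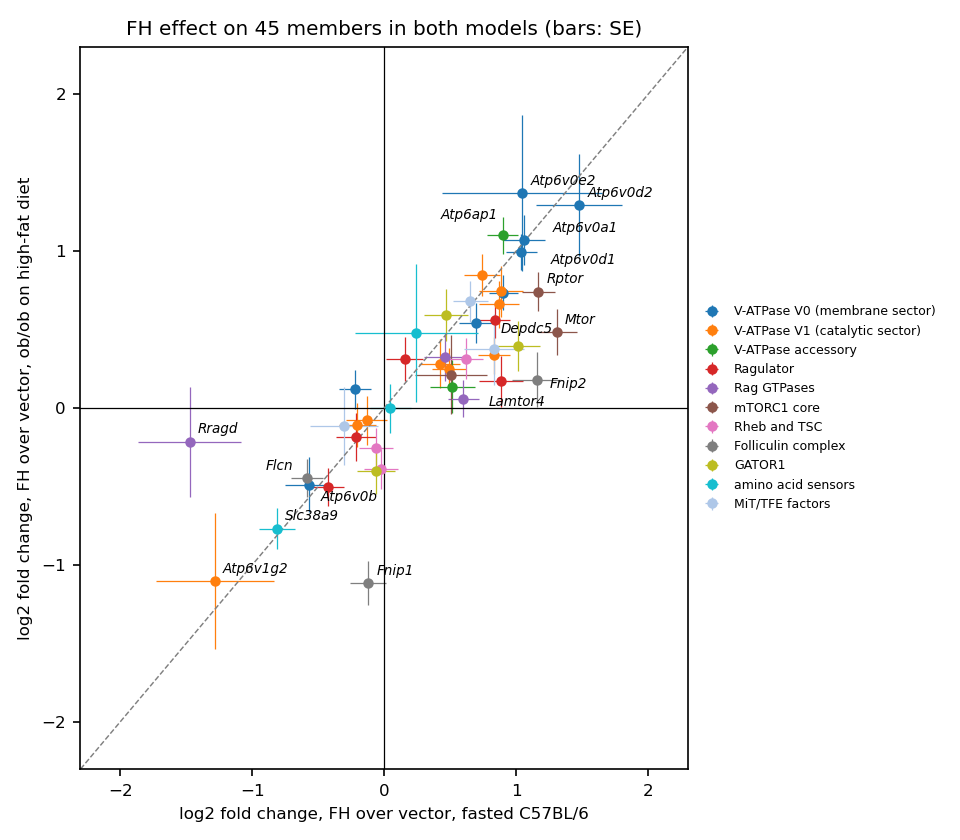
Log2 fold change of each tested member, FH over vector, in fasted (horizontal axis) and ob/ob livers (vertical axis), relative to the bulk of genes, with SE bars. Atp6v0d1, Atp6v0a1 and Atp6ap1 lie near the diagonal at about equal effects, while Fnip1, Fnip2 and Mtor lie below it.

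Across the 2 models, 15 members rose in both (33.3%, against 18.9% of all genes tested) and 5 fell in both (11.1%, against 18.8%), namely Atp6v0b, Atp6v1g2, Flcn, Lamtor3 and Slc38a9. Of the 15, 10 were pump genes: Atp6ap1, Atp6v0a1, Atp6v0a2, Atp6v0c, Atp6v0d1, Atp6v0d2, Atp6v1b2, Atp6v1d, Atp6v1e1 and Atp6v1h. The other 5 were Lamtor2, Mtor, Nprl2, Rptor and Tfe3. Another 10 were called in neither (22.2%, against 30.3%): Atp6v0e, Atp6v1f, Atp6v1g1, Castor1, Lamtor1, Lamtor5, Mitf, Mlst8, Rheb and Sesn1. On library totals all of these 10 but Castor1 and Mlst8 were called lower in fasted livers. Shares of pump and control genes are given as a description, since their difference was not tested. In fasted livers 13 of 19 pump genes rose (68.4%) and 12 of 26 control genes (46.2%), and in ob/ob livers 11 (57.9%) and 5 (19.2%), beside 27.4% and 25.8% of all genes. The medians were 0.74 and 0.54 for the pump and 0.35 and 0.17 for the control genes. On library totals 2 and 3 pump genes (10.5% and 15.8%) and 3 and 0 control genes (11.5% and 0%) rose, beside 7.16% and 6.83% of all genes. Falls were called for 5 and 8 pump genes (26.3% and 42.1%) and 12 and 12 control genes (46.2% in each model), beside 55.7% and 53.3% of all genes.

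The vector libraries of the 2 models compare ob/ob livers on a high-fat diet with fasted C57BL/6 livers, so strain, diet and feeding cannot be told apart. Of the 45 members 6 were called (13.3%, against 17.5% of all genes), all 6 higher (against 9.36%) and 0 lower (against 8.18%), with 8 and 3 at an unadjusted p under 0.05, and DESeq2 called 6 and 0. All 6 were among the 26 control genes, and the difference from the pump genes was not tested. Fnip2 was higher by 1.47 (SE 0.19, adjusted p = 2.16e-04), Mtor by 1.07 (SE 0.15, adjusted p = 4.41e-04) and Depdc5 by 0.74 (adjusted p = 0.00901), and these 3 kept their call with each library left out. Mlst8 was higher by 0.94 (SE 0.27, adjusted p = 0.0289), Lamtor4 by 0.55 (adjusted p = 0.038) and Tsc2 by 0.42 (adjusted p = 0.0399). Mlst8 lost its call without fasted vector replicate 2 or 3 or ob/ob vector replicate 1 or 3 (0.69 to 0.99, adjusted p = 0.0565 to 0.102). Lamtor4 lost it without any of 7 libraries, fasted vector replicates 2 and 3, fasted FH replicate 2, ob/ob vector replicates 1 and 3 and ob/ob FH replicates 2 and 3 (0.44 to 0.55, adjusted p = 0.0516 to 0.146). Tsc2 lost it without any of 6, fasted vector replicates 1, 2 and 3, ob/ob vector replicates 1 and 3 and ob/ob FH replicate 3 (0.33 to 0.48, adjusted p = 0.0568 to 0.13). Leaving out fasted vector replicate 2 or 3 or ob/ob vector replicate 1 or 3 left 3 calls, and 7 were made without ob/ob vector replicate 2. Of the 19 pump genes edgeR called 0, with 3 at an unadjusted p under 0.05, and DESeq2 called 0. On library totals 10 members were higher (22.2%, against 17.9%), among them 1 pump gene, Atp6v1d at 0.52 (adjusted p = 0.00606).

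The rest of the pathway was read from lists of other genes. Beside these counts, 27.4% of all genes tested rose and 27.6% fell in fasted livers, and 25.8% and 27.9% in ob/ob livers. On library totals the shares were 7.16% and 55.7% in fasted livers and 6.83% and 53.3% in ob/ob livers. The list of TFEB network genes outside the pump held lysosomal enzymes and membrane proteins, and the autophagy genes Sqstm1 and Uvrag. Gpnmb is in this list and in that of macrophage markers. Of the listed genes, 19 of 23 rose in fasted (median 0.94) and 19 of 23 in ob/ob livers (median 0.93), with 0 lower. On library totals 12 and 11 were higher and 2 and 3 lower. Among them Ctsd, cathepsin D, rose by 1.49 and 1.62, and Gaa, the acid alpha-glucosidase, by 1.48 and 1.43. By contrast, of 10 genes of V-ATPase assembly and regulation 3 rose and 5 fell in fasted livers (median -0.27), and 1 rose and 6 fell in ob/ob livers (median -0.60). Ncoa7 fell by 1.61 and Ccdc115, an assembly factor, by 0.85 in fasted livers, and Dmxl2, of the complex that reassembles the pump, fell by 1.41 in ob/ob livers. Meak7 rose by 1.09 and 1.41.

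Upstream of the Rag GTPases, 1 of 5 GATOR2 genes rose and 1 fell in fasted livers (Seh1l by 0.51, Wdr59 at -0.39), and 2 rose and 1 fell in ob/ob livers (Wdr24 by 0.36, Sec13 by 0.34, Mios at -0.61). For this and the next lists the shares of all genes were 27.4% higher and 27.6% lower in fasted livers, and 25.8% and 27.9% in ob/ob livers. On library totals Seh1l was at -0.17, Wdr24 at -0.26 and Sec13 at -0.29. Kptn, of the KICSTOR complex that holds GATOR1 at the lysosome, rose by 0.60 and 0.50, with -0.07 and -0.12 on library totals. Of 10 other nutrient and stress inputs 4 rose and 1 fell in fasted and 7 rose and 1 fell in ob/ob livers. Slc3a2, the heavy chain of the leucine transporter, rose by 1.19 and 1.27, and Bmt2, the S-adenosylmethionine sensor, fell by 0.82 and 1.31. Of 5 further mTORC1 parts and chaperones 4 and 3 rose and 0 fell, such as Akt1s1 (PRAS40), by 0.70 and 0.36, with -0.26 on library totals in ob/ob livers. Tti1 rose by 0.55 and 0.70, with -0.13 on library totals in fasted livers, and Telo2 by 0.53 in ob/ob livers, with -0.09 there.

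Of 12 mTORC1 substrates and readouts 6 rose and 1 fell in fasted livers, beside 27.4% and 27.6% of all genes. In ob/ob livers 3 rose, near the 25.8% of all genes, and 2 fell, beside 27.9%. Eif4ebp2, a repressor of translation that mTORC1 inactivates, rose by 1.25 and 0.64, and Rps6kb1, the S6 kinase, fell by 1.13 in ob/ob livers. In mTORC2, the complex that shares the Mtor kinase, 2 of 4 rose and 1 fell in each model: Rictor fell by 1.24 and 1.81, while Mapkap1 rose by 1.21 and 0.83. Prr5 rose by 0.76 (adjusted p = 0.0460) and 0.95 (adjusted p = 0.0157), with 0.09 and 0.33 on library totals, not called. Its fasted call was lost with the replicate number as a block (adjusted p = 0.0568) and without any of 9 libraries, all but fasted FH replicate 1 and ob/ob vector replicates 2 and 3 (0.58 to 0.81, adjusted p = 0.0504 to 0.167), and its ob/ob call without ob/ob FH replicate 1 (0.77, adjusted p = 0.0719). The calls of Wdr59 in fasted livers and of Wdr24, Sec13, Telo2 and Akt1s1 in ob/ob livers were lost without any of 4, 7, 8, 4 and 3 libraries, with adjusted p up to 0.109, 0.164, 0.181, 0.127 and 0.0712. On library totals, 3 of the 50 tested genes of these 7 lists, the lysosomal list aside, rose and 25 fell in fasted livers, and 2 rose and 23 fell in ob/ob livers. Of all genes, 7.16% rose and 55.7% fell in fasted livers on that scaling, and 6.83% and 53.3% in ob/ob livers.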

How the data were processed

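RNA of 12 mouse liver libraries was analysed from the gene counts that the authors deposited, used as given. Alignment with STAR 2.7.11a and the build GRCm39 are named in the submitters' processing notes, and per the labels' protocols a stranded mRNA kit and 1 μg of TRIzol-extracted RNA were used. Neither the counting tool nor its strand setting or annotation is stated.

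The 4 groups were fitted together with edgeR 4.0.16 in R 4.3.3 (TMM scaling, quasi-likelihood test, 8 residual degrees of freedom) on genes passing filterByExpr (10 counts, 15 in total). P-values were adjusted by Benjamini-Hochberg over all 15228 genes tested and called under 0.05. SE belongs to the log2 fold change, ± is the SD of 3 libraries, and a limit of 3 counts covers counting error only. Other settings were library totals, RLE factors, DESeq2 1.42.0, no filter, a replicate block, the compared groups only and each library left out. The steps were tested on simulated data.

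The members, lists and settings were chosen with earlier results of these data known. Up to 10 called members per direction with the smallest adjusted p were named, with a set panel (Fh1, Tfeb, Tfe3, Mtor, Rptor, Flcn, Rragc, Rragd, Tsc2, Atp6v1a, Atp6v1h, Atp6v0d1, Atp6v0d2) and up to 3 called genes of each list. A result that this rule names is not reported here. The other members were added so that each is accounted for, after their values were seen. Exon lengths and opposite-strand overlaps came from GENCODE M21 (GRCm38) and promoters from RefSeq (GRCm38.p6), joined by symbol. Replicates with the same number share only that number, since no source pairs them.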

Additional observations from a re-analysis of the deposited data

Results flagged for a closer look

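The FH effects on 3 members differed between the fasted and ob/ob livers by a test of the difference itself. Fnip1 differed by -0.99 (log2, ob/ob minus fasted, edgeR adjusted p = 0.00878), since it was lower with FH in 3 of 3 ob/ob libraries and overlapped in fasted livers. Fnip2 differed by -0.98 (adjusted p = 0.0335) and Mtor by -0.82 (adjusted p = 0.0296). For both, the fasted vector libraries were the lowest of all, and both calls were lost on library totals and without any of 9 libraries. The ob/ob FH libraries also differed from all others in sex-linked genes, and the part of this in the 3 differences was not tested.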

How the results depend on the processing

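Scaling moved the counts of the 2 FH comparisons most. On library totals 5 members were called higher and 17 lower in fasted livers, 3 and 20 in ob/ob livers, 1 (lower) in the difference of effects and 10 (all higher) between vector groups. With the compared groups alone 3 were called between vector groups, all higher. Of the genes that the naming rule covers, 6 lost their call in ob/ob livers with the compared groups alone and 6 without the filter. In fasted livers 1 lost it without the filter, and all 47 kept call and sign with the compared groups alone. RLE factors took the call from 2 in each model. Leaving out 1 library gave 25 to 31 members called in fasted livers (21 to 25 higher, 4 to 7 lower). For ob/ob livers it gave 18 to 26 (13 to 19 higher, 4 to 8 lower). The ranges were 1 to 5 in the difference and 3 to 7 between vector groups. The cause of these shifts was not tested.

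No source pairs the replicate numbers, and deviations of same-numbered libraries correlated at -0.15 to 0.067. With the replicate number as a block 31 members were called in fasted livers, 24 in ob/ob livers (23 of them shared), 3 in the difference (2 shared) and 6 between vector groups. Without the block, 55%, 53.7%, 8.43% and 17.5% of all genes were called in the same order. Shares of all genes with the block are not given here.

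On library totals the sign turned for 12 of the 45 members in fasted livers (8 of them called relative to the bulk of genes), 19 in ob/ob livers (5 called), 1 in the difference and 10 between vector groups (none called in either of the last). The called ones were Atp6ap2 (-0.16), Atp6v1c1 (-0.18), Rraga (-0.21) and Nprl2 (-0.20) in fasted and Atp6v1d (-0.29), Atp6v0a2 (-0.077) and Nprl2 (-0.03) in ob/ob livers, beside those among the genes of the naming rule and of the pathway lists. Of these, signs turned in fasted livers for Tfe3 (-0.016), Rragc (-0.069), Tsc2 (-0.056), Atp6v1a (-0.24), Seh1l (-0.17), Kptn (-0.067) and Tti1 (-0.13). In ob/ob livers they turned for Lamtor2 (-0.065), Tfeb (-0.25), Mtor (-0.13), Rragc (-0.56), Tsc2 (-0.31), Atp6v1a (-0.33), Wdr24 (-0.26), Sec13 (-0.29), Kptn (-0.12), Akt1s1 (-0.26) and Telo2 (-0.089), and between vector groups for Tfe3 (0.21) and Atp6v0d1 (0.19). With 2 groups alone Rragc was at -0.0018 in ob/ob livers, and Tfe3 at 0.019 and Atp6v0d1 at 0.0063 between vector groups. With 1 library left out, uncalled values crossed 0 in ob/ob livers for Rragc (-0.020 to 0.17) and Rragd (-0.70 to 0.14). Between vector groups they did so for Tfeb (-0.0036 to 0.14), Tfe3 (-0.12 to 0.089), Flcn (-0.0091 to 0.15), Rragd (-0.27 to 0.27), Atp6v1a (-0.063 to 0.18), Atp6v1h (-0.031 to 0.21), Atp6v0d1 (-0.11 to 0.085) and Atp6v0d2 (-0.55 to 0.098).

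Depth limits Atp6v0e2, Castor1, Atp6v1g2, Rragd, Atp6v0d2 and Mlst8, which fell as low as 1, 8, 11, 15, 23 and 26 counts in a library.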
